A study of Mus musculus with 30 samples.

Results

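Nr6a1-/- cells were compared with wildtype cells after 4 days of differentiation towards neuromesodermal progenitors (NMPs), with Gdf11 present for the last 24 h (d4G). The members are the 6 libraries, of 30 in the series, whose labels give this stage, 3 of each genotype. All cells derive from the Bruce4 mouse embryonic stem cell line and received FGF2 from d0, CHIR99021, which activates Wnt signalling, from d2 onwards and Gdf11 from d3, so that these treatments are shared by both groups. The Nr6a1-/- libraries come from 1 clone with CRISPR/Cas9 deletions on both alleles of an internal exon that encodes part of the DNA-binding domain, and the genotype and the clone therefore cannot be told apart. The same genotypes at d4 without Gdf11, with 3 libraries each, were used only to ask where the genotype difference changed with Gdf11. Genes on chromosome 8 are described apart from the rest.

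Neuromesodermal progenitors lie at the tail end of the embryo, express the mesodermal factor T (Brachyury) together with the neural factor Sox2, and supply both spinal cord and somites as the body axis extends. Gdf11, a ligand of the TGF-beta superfamily that signals through activin receptors and Smad2/3, ends trunk formation and starts the sacral and tail programme, in which the Hox genes at the posterior end of each cluster are turned on. Nr6a1 is an orphan nuclear receptor that binds AGGTCA sequences and is expressed while the trunk is formed.

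The 6 libraries held 1570714 to 2365945 counts, the smallest being Nr6a1-/- replicate 2, and detected 17174 to 18824 genes. Levels are given as CPM, counts scaled to a common library size. A gene without any count could still have been present at 1.27 to 1.91 CPM, depending on the library, a limit that covers counting error only. NMP markers were present in every library, with T at 156, 157 and 165 CPM in wildtype and 115, 109.5 and 107 CPM in Nr6a1-/- replicates 1 to 3, whereas the endothelial marker Kdr had 1 count and the neural crest marker Foxd3 had 0 counts over all 6. Markers of other cells were not all absent. Sox10 of neural crest had 11 counts in wildtype and 4 in Nr6a1-/- libraries. In wildtype, Sox17 of endoderm stood at 34.2 to 42.8 CPM and Nanog of pluripotent cells at 8.85 to 11.6 CPM. Nr6a1 itself cannot check the genotype labels here, because the libraries were primed at the poly(A) tail and hold fragments near the 3′ end, while the deletions are internal. It stood at 17.2, 19.1 and 17.7 CPM in wildtype and 18.8, 29.3 and 37.7 CPM in Nr6a1-/- replicates. These groups overlapped, Nr6a1-/- replicate 1 lying below wildtype replicate 2, and the call (log2 fold change 0.67, SE 0.183, FDR = 0.0142) was lost without Nr6a1-/- replicate 3 (0.37, FDR = 0.365) or wildtype replicate 1 (0.64, FDR = 0.051). Strand is not stated to have been used in counting, so the values of Nr6a1 and its antisense gene Nr6a1os are uncertain.

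In total 398 genes were higher in Nr6a1-/- cells, 3.28% of the 12149 tested, and 562 were lower, 4.63%. Both shares are the reference for the counts of called list members below. Here and below a gene is called where its Benjamini-Hochberg adjusted p (FDR) from edgeR's quasi-likelihood test was below 0.05, and log2 fold changes are Nr6a1-/- over wildtype. Off chromosome 8, the calls were split nearly evenly with the scaling used, with 391 of 11494 genes higher (3.4%) and 404 lower (3.51%). This balance moved with the scaling, to 356 higher and 438 lower when chromosome 8 was left out of the scaling factors. Without such factors 323 were higher and 466 lower. On chromosome 8, 158 of 655 genes were lower (24.1%) and 7 were higher (1.07%). Leaving out single libraries gave 259 to 308 higher and 301 to 349 lower genes off chromosome 8, and 111 to 132 lower genes on it, the 259 being reached without wildtype replicate 2.

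**Figure D1:**
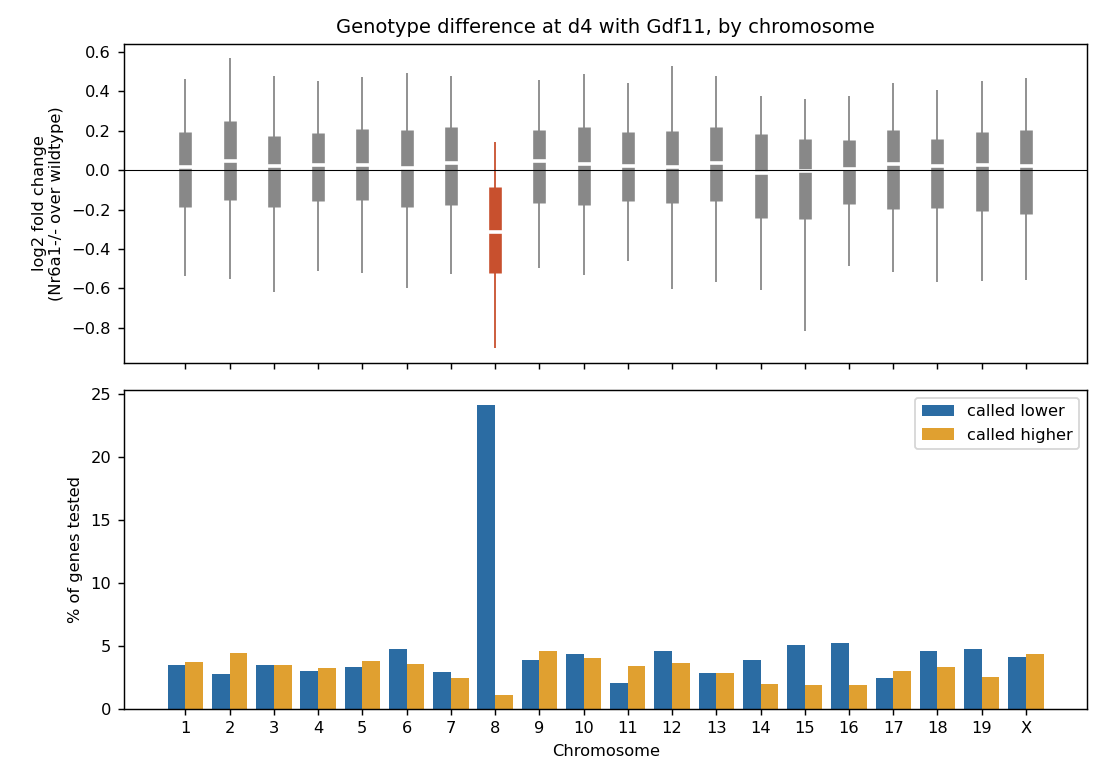
Log2 fold change (Nr6a1-/- over wildtype) of the genes of each chromosome at d4 with Gdf11, as the median (white line), the middle 50% (thick bar) and the 10th to 90th percentile (thin line), above the percent of tested genes called lower or higher. Chromosome 8 (red) has a median of -0.31 and 24.1% of its genes called lower, while no other chromosome passes 5.21%.

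Chromosome 8 carried a smaller part of the transcriptome in Nr6a1-/- cells. Its genes made up 5.002, 4.999 and 4.99% of the counts in wildtype replicates 1 to 3 and 3.93, 3.91 and 3.997% in Nr6a1-/- replicates. The genotypes did not overlap, and the Nr6a1-/- mean was 0.789 times the wildtype mean, with an exact permutation p of 0.1 (2-sided), the smallest that 3 against 3 libraries can give. Without the 10 most abundant genes of each library the shares were 5.51 ± 0.0414% and 4.37 ± 0.0105% (SD, n = 3). At d4 without Gdf11 the share of all counts was 5.04, 4.88 and 5.02% in wildtype and 3.77, 3.88 and 3.82% in Nr6a1-/- replicates. The lower share was thus also seen without Gdf11.

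The difference was spread over the whole chromosome. The median log2 fold change of its genes was -0.31 and 82.9% lay below 0, against a median of 0.024 and 46.4% below 0 over the genes off chromosome 8. The medians of the other chromosomes lay between -0.014 (chromosome 14) and 0.049 (chromosome 9). Each Nr6a1-/- library showed it, with medians over the 483 chromosome 8 genes used of -0.32, -0.31 and -0.32 relative to the wildtype mean on the log2(CPM + 1) scale, and 0.025, 0.020 and 0.036 for 7737 genes elsewhere. In windows of 10 Mb, all 12 windows with at least 20 tested genes had a median below 0, from -0.43 to -0.14, and 70.4% to 89.5% of their genes were lower. The median was nearest to 0 in the lowest of 4 classes of CPM, at -0.25, and was -0.29, -0.32 and -0.32 in the others. Genes elsewhere had medians of -0.043, 0.024, 0.031 and 0.040 in the same classes. The share of genes called lower changed more with level. It was 10.98%, 11.04%, 25% and 49.4% in these classes, against 3.17% to 3.82% for genes of the same levels elsewhere.

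Since most of the chromosome moved together, its genes were also tested against their own median. Against this reference 35 of the 158 lower calls were kept, the others being lost, and 28 genes were higher. The value against this median is therefore given beside that of a lower chromosome 8 gene where it is first described.

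The metallothioneins Mt1 and Mt2, small cysteine-rich proteins that bind zinc and copper, had some of the smallest FDR values on this chromosome. Mt1 (chromosome 8, 94179082 to 94180327, plus strand) stood at 429.9, 316 and 372 CPM in wildtype and 102, 108 and 103 CPM in Nr6a1-/- replicates (log2 fold change -1.83, SE 0.110, FDR = 2.81e-15). Mt2 (chromosome 8, 94172664 to 94173568, plus strand) stood at 113, 92.2 and 94.9 and 24.05, 22.9 and 29.2 CPM (log2 fold change -1.96, SE 0.172, FDR = 7.18e-11). No Nr6a1-/- library of either gene came near the lowest wildtype library, and both stayed lower against the chromosome's median, at -1.52 and -1.65. The promoters of this neighbouring pair, which are controlled by zinc through metal response elements, are shown from 250 bases before to 50 bases after the start site, as RefSeq gives them on GRCm38.p6. The windows are chr8:94172368-94172667, plus strand for Mt2 and chr8:94178839-94179138, plus strand for Mt1. Capitals mark the core of the element, TGCACNC or TGCGCNC, on either strand.
Mt2: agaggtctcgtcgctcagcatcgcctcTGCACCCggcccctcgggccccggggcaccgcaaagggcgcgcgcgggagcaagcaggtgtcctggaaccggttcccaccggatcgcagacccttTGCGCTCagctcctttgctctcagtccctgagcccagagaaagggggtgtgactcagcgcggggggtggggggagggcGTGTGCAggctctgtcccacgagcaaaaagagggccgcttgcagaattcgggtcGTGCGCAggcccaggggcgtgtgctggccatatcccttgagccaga
Mt1: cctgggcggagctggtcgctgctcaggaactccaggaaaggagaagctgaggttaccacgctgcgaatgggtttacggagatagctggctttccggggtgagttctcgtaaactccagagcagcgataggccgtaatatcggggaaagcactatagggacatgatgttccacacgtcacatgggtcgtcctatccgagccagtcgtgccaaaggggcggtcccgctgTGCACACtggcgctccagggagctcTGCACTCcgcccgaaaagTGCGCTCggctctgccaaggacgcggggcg
The core was found 4 times in the Mt2 window, first at -223, and 3 times in the Mt1 window, first at -23, counted from the start site. It is a common sequence, since 41.9% of the 8800 tested genes with a promoter window held at least 1 match and 4.11% held 3 or more. Among genes called lower on chromosome 8, 44.4% of 117 held 1 or more and 9.40% held 3 or more, and a match is only a description of the letters.

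Other chromosome 8 genes that fell below the chromosome's own shift cover signalling, patterning and matrix. Nrp1, a receptor for semaphorins and VEGF, stood at 10.7, 16.6 and 9.70 CPM in wildtype and 0.962, 2.55 and 2.14 CPM in Nr6a1-/- cells (log2 fold change -2.72, SE 0.445, FDR = 3.57e-05, and -2.41 against the median). Junb, a subunit of the AP-1 transcription factor, stood at 65.1, 53.2 and 51.9 and 15.9, 17.2 and 15.4 CPM (log2 fold change -1.81, SE 0.225, FDR = 2.53e-07, and -1.499). Mmp2, a gelatinase that degrades matrix, stood at 91.2, 88.1 and 73.8 and 26.5, 26.7 and 29.6 CPM (log2 fold change -1.60, SE 0.135, FDR = 2.47e-11, and -1.29). In all 3 genes the genotypes were fully separated, and the Nr6a1-/- libraries of Junb and Mmp2 lay close together.

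The remaining large falls by the naming rule were those of 2210011C24Rik (-2.42, SE 0.331, FDR = 1.75e-06), the sphingomyelinase gene Smpd3 (-2.04, SE 0.328, FDR = 2.77e-05) and the small nucleolar RNA Snord13 (-1.54, SE 0.186, FDR = 1.45e-07), each called against the median as well, at -2.11, -1.73 and -1.23. Irx3 and Irx5, neighbouring homeobox genes of neural and mesodermal patterning, were low in both genotypes and lower in Nr6a1-/- cells. For Irx5 the ratio of wildtype to Nr6a1-/- counts was 9.70 (95% counting interval 3.05 to 49.4, 34 against 3 counts), and the fitted log2 value against the median was -2.86 (FDR = 0.000635). Irx3 fell by 2.10 on the log2 scale (FDR = 0.00295), and was at -1.79 against the median (FDR = 0.0164), but not past the threshold without wildtype replicate 1 (-1.59, FDR = 0.0612), and FDR values ran from 0.000407 to 0.08 over all alternatives. The sterol synthesis genes Msmo1 (-0.76, FDR = 6.29e-08) and Mvd (-0.74, FDR = 9.5e-05) and the basement membrane collagen Col4a1 (-0.93, FDR = 4.43e-07) were also called against the median, at -0.44, -0.42 and -0.61. In contrast, Nkd1, Col4a2, Cdh11 and Mcm5, which were called lower, were no longer called against the median, at -0.30, -0.42, -0.67 and -0.064 (FDR = 0.123, 0.0733, 0.0818 and 0.801).

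Few chromosome 8 genes rose. The zinc finger gene Zfp827 stood at 44.2, 54.4 and 48.9 CPM in wildtype and 92.8, 66.9 and 79.8 CPM in Nr6a1-/- cells (log2 fold change 0.70, SE 0.143, FDR = 0.000728). All 3 Nr6a1-/- libraries were above every wildtype library. The calls of the centromere gene Cenpu (0.85, FDR = 0.037) and the atypical cadherin Fat1 (0.48, FDR = 0.0291) were weaker. Cenpu was lost without Nr6a1-/- replicate 1 (0.91, FDR = 0.0601), Nr6a1-/- replicate 2 (0.66, FDR = 0.2), wildtype replicate 1 (0.68, FDR = 0.178) or wildtype replicate 2 (0.86, FDR = 0.0927), and Fat1 without Nr6a1-/- replicate 2 (0.46, FDR = 0.0892), Nr6a1-/- replicate 3 (0.44, FDR = 0.116), wildtype replicate 1 (0.43, FDR = 0.117) or wildtype replicate 2 (0.40, FDR = 0.173), with FDR ranges over all alternatives of 0.037 to 0.264 and 0.0149 to 0.172. Fgfr1, an FGF receptor gene, was at 0.36 (FDR = 0.0692) and 0.68 against the median of its chromosome (FDR = 2.39e-04).

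**Figure D2:**
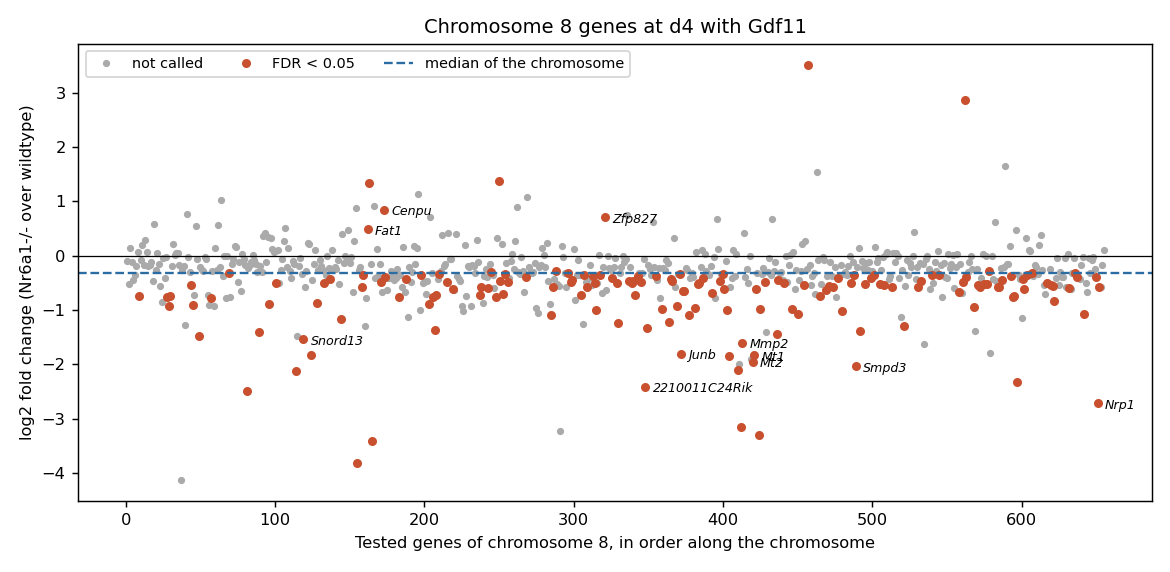
Log2 fold change at d4 with Gdf11 of the 655 tested genes of chromosome 8, placed in their order along the chromosome, with called genes in red and genes named in the text labelled. The points are shifted below 0 along the whole length, around the dashed median of -0.31.

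Off chromosome 8, the genes that rose most included genes of transcription factors, among them 4 posterior Hox genes, Bcl11a, Bcl11b and Nfib. Spock2, a matrix proteoglycan (chromosome 10, 60106219 to 60135198, plus strand), had the smallest FDR of all higher genes. It stood at 111, 121 and 108 CPM in wildtype and 859.5, 867 and 831 CPM in Nr6a1-/- cells (log2 fold change 2.91, SE 0.109, FDR = 2.6e-21). The libraries of each genotype lay close together, and the rise was 7.502-fold.

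The zinc finger factors Bcl11a and Bcl11b rose together. Bcl11a stood at 9.30, 4.06 and 5.48 CPM in wildtype and 89.9, 79.6 and 60.5 CPM in Nr6a1-/- cells (log2 fold change 3.62, SE 0.303, FDR = 2.07e-11), and Bcl11b at 5.58, 4.47 and 3.79 and 41.4, 57.95 and 42.9 CPM (log2 fold change 3.34, SE 0.327, FDR = 1.18e-09). Nfib, a nuclear factor I family member, stood at 6.05, 4.47 and 6.75 and 59.2, 56.04 and 54.05 CPM (log2 fold change 3.29, SE 0.259, FDR = 4.8e-12). All 3 factors were low in each wildtype library and well above that level in each Nr6a1-/- library.

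Trim9, a ubiquitin ligase of neurons, stood at 2.79, 5.68 and 10.1 CPM in wildtype and 105, 95.5 and 103 CPM in Nr6a1-/- cells (log2 fold change 4.001, SE 0.253, FDR = 3.38e-14). Fabp7, the fatty acid-binding protein of radial glia, stood at 6.05, 4.87 and 5.48 and 46.2, 52.2 and 43.3 CPM (log2 fold change 3.10, SE 0.254, FDR = 1.28e-11). Wildtype replicate 3 was the highest of its group for Trim9, at 10.1 CPM, and still far below the Nr6a1-/- libraries.

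Among rises of genes nearly silent in wildtype cells, Meox1, a homeobox factor of somites, rose by a count ratio of 17.4 (95% counting interval 8.13 to 44.2, 104 against 7 counts). Sowaha stood at 0, 1.22 and 1.69 CPM in wildtype and 15.9, 28.02 and 9.87 CPM in Nr6a1-/- cells, a ratio of 16.7 (95% counting interval 7.81 to 42.6, 100 against 7 counts). Prcd, known from photoreceptor discs, gave a ratio of 8.65 (95% counting interval 4.45 to 18.8, 74 against 10 counts). The Nr6a1-/- libraries of Sowaha ranged widely and yet did not overlap with wildtype.

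**Figure D3:**
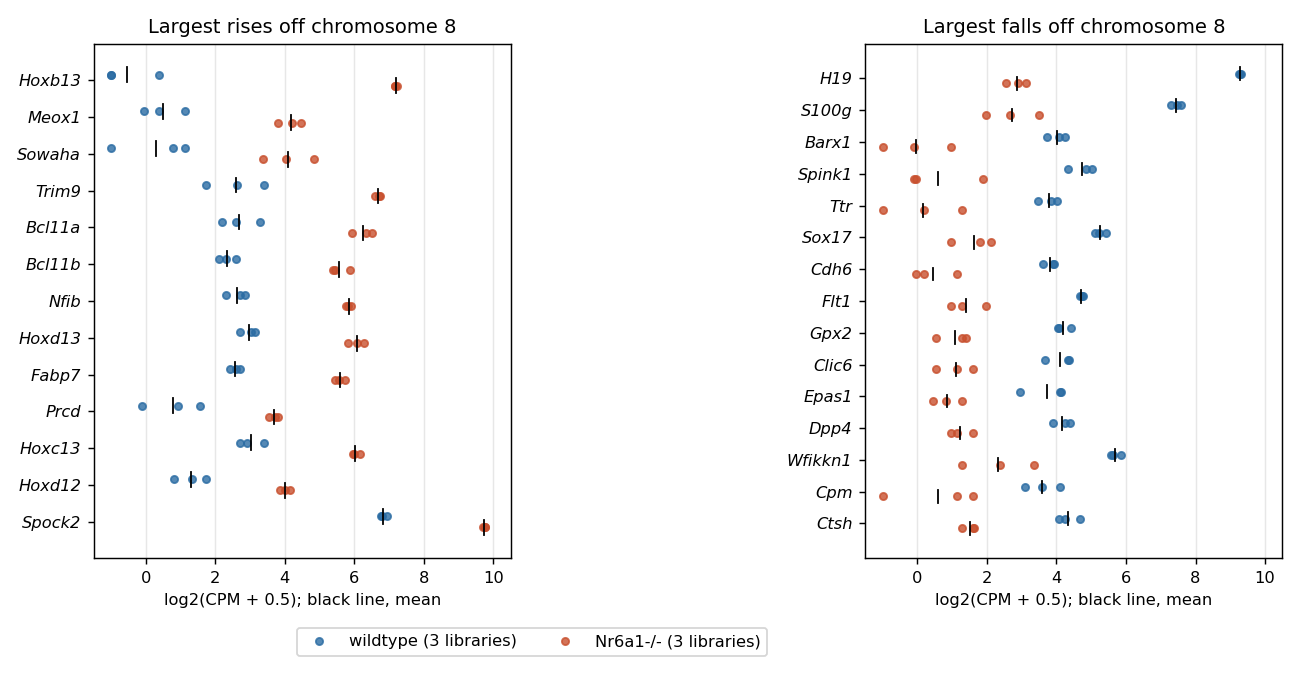
Level of 13 of the genes with the largest rise and of the 15 with the largest fall off chromosome 8, by the naming rule, in each of the 3 wildtype (blue) and 3 Nr6a1-/- (red) libraries at d4 with Gdf11, on a log2(CPM + 0.5) scale with the group mean as a black line. The groups do not overlap for any of these genes, which is part of the rule.

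H19 and S100g had the largest falls off chromosome 8 by the naming rule. H19, an imprinted non-coding RNA (chromosome 7, 142575529 to 142578143, minus strand), stood at 604, 628 and 617 CPM in wildtype and 5.29, 8.28 and 6.86 CPM in Nr6a1-/- cells, a 91.3-fold fall (log2 fold change -6.51, SE 0.161, FDR = 2.76e-27). Every wildtype library was far above every Nr6a1-/- library, and the libraries of each genotype lay close together. S100g, the intracellular calcium-binding protein calbindin-D9k, stood at 189, 176 and 155 and 5.77, 10.8 and 3.43 CPM, a 27.6-fold fall (log2 fold change -4.79, SE 0.306, FDR = 1.77e-14).

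The S100g promoter window (chrX:162964550-162964849, minus strand of GRCm38.p6, RefSeq) is shown because it holds the AGGTCA core site of nuclear receptors, in capitals, on both strands.
S100g: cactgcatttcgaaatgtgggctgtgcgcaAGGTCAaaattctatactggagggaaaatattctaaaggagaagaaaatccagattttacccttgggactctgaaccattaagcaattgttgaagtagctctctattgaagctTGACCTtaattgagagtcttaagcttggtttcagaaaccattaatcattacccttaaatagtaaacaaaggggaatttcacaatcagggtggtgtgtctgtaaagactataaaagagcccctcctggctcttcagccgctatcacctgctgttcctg
The forward match starts 220 bases before the start site and the reverse match, read as TGACCT, 107 bases before it. This core is frequent, being present in 14.2% of the 8800 tested genes with a window, in 17.1% of 299 genes called higher and in 14.7% of 409 called lower. The extended site of 9 bases bound by Nr6a1-like receptors, TCAAGGTCA, was in 0.261% of all, in 2 of the 299 genes called higher (Efemp2 and Msrb2) and in 0 of the 409 called lower. The direct repeat of AGGTCA without spacer was in none of these windows. Only 8800 of the 12149 tested genes had a window. Hoxb13, H19, Sox17, Lefty2 and Meox1 had none and are not part of these shares. A window of 300 bases says nothing of sites elsewhere, and the S100g matches are a description of the letters only.

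Endoderm markers were lower as a group. Of 12 tested markers 9 were called lower (75%) and 0 higher, with a median log2 fold change of -1.80 against 0.011 over all genes tested, and 5 of the 9 calls were kept under every alternative. Their summed level was 197 to 242 CPM in wildtype and 76.4 to 88.5 CPM in Nr6a1-/- libraries. Sox17, a master regulator of endoderm, stood at 42.8, 36.5 and 34.2 CPM and 1.44, 3.82 and 3.003 CPM (log2 fold change -3.79, SE 0.375, FDR = 1.41e-09). For the endoderm factor Foxa2 the ratio of wildtype to Nr6a1-/- counts was 14.6 (95% counting interval 4.71 to 72.9, 51 against 3 counts). Spink1, a trypsin inhibitor (-4.44, FDR = 3.59e-09), the thyroxine carrier Ttr (-3.92, FDR = 3e-05) and the tight junction gene Cldn6 (-1.69, FDR = 4.67e-06) fell as well. Afp, Apoa1, Hnf4a, Cer1, Shh and Foxa1 did not pass the filter on low counts, and Gata4, Foxa3 and Krt19 were not called, with Krt19 at 0.18 (FDR = 0.734). In bulk libraries fewer cells of a type and less RNA per cell cannot be told apart. The endoderm markers moved with the falls of H19 and S100g, and their part in those falls was not tested.

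Further falls by the naming rule were those of Barx1, a homeobox gene of stomach mesenchyme with a ratio of wildtype to Nr6a1-/- counts of 23.5 (95% counting interval 8.94 to 87.9, 110 against 4 counts), the cadherin Cdh6 (-3.70, FDR = 5.83e-08), the VEGF receptor Flt1 (-3.44, FDR = 5.15e-12) and the gut glutathione peroxidase Gpx2 (-3.36, FDR = 7.26e-09). Clic6 (-3.32, FDR = 3.65e-06), the hypoxia factor gene Epas1 (-3.30, FDR = 2.29e-05), the peptidase genes Dpp4 (-3.22, FDR = 7.91e-10) and Cpm (-3.11, FDR = 5.72e-05) and the cathepsin gene Ctsh (-3.06, FDR = 2.53e-07) followed. Flt1 was the only called gene of 5 tested endothelial and blood markers, and the endothelial genes Kdr and Cdh5 had 1 and 5 counts over the 6 libraries. Wfikkn1, a secreted antagonist that binds Gdf11, stood at 46.99, 49.1 and 57.3 CPM in wildtype and 9.62, 1.91 and 4.72 CPM in Nr6a1-/- cells (log2 fold change -3.17, SE 0.294, FDR = 6.35e-10). The genotypes were far apart, although the Nr6a1-/- libraries differed among themselves.

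Hox genes differed by position in the cluster. Of the 13 anterior genes tested (paralogue groups 1 to 5) 2 were higher (15.4%) and 0 were lower. Of the 11 trunk genes (groups 6 to 9) none was higher and 5 were lower (45.5%). Of the 10 posterior genes (groups 10 to 13) 6 were higher (60%) and 1 lower (10%). The medians of these 3 groups were 0.17, -0.25 and 1.01. All of these calls were kept under every alternative. Summed over the group, posterior Hox genes stood at 642 to 679 CPM in wildtype and 876 to 998 CPM in Nr6a1-/- libraries, and trunk Hox genes at 860 to 916 CPM and 529 to 583 CPM.

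Within HoxC and HoxD, the direction followed position along the cluster as well. By contrast, neither Hoxa10 nor Hoxa11 was called in HoxA, and no trunk gene was called in HoxB. In HoxC, Hoxc6, Hoxc8, Hoxc9 and Hoxc10 were lower and Hoxc11 and Hoxc13 higher. Hoxc9 stood at 234, 240.0 and 243 CPM in wildtype and 89.9, 68.8 and 78.9 CPM in Nr6a1-/- cells, Hoxc10 at 276, 279 and 290.5 and 102, 90.4 and 86.2 CPM, and Hoxc11 at 39.1, 42.6 and 37.9 and 87.5, 91.7 and 92.2 CPM. The step from lower to higher thus fell between Hoxc10 (-1.60, FDR = 1.21e-09) and Hoxc11 (1.18, FDR = 7.27e-06), which are next to each other. Hotair, a non-coding RNA transcribed antisense between Hoxc11 and Hoxc12, stood at 3.26, 4.06 and 3.79 and 20.2, 29.9 and 20.6 CPM (log2 fold change 2.63, SE 0.330, FDR = 4.12e-06), a value that is uncertain where strand was not used.

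In HoxD, Hoxd9 was lower (-0.79, FDR = 0.00135), Hoxd10 was at 0.23 (FDR = 0.581), and Hoxd11, Hoxd12 and Hoxd13 were higher. Hoxd13 stood at 8.37, 6.09 and 7.59 CPM in wildtype and 67.3, 56.04 and 77.2 CPM in Nr6a1-/- cells, and Hoxd12 at 2.79, 2.03 and 1.26 and 15.4, 14.01 and 17.2 CPM. Both were separated between genotypes, and the fold changes were 3.19 and 2.93 on the log2 scale. In HoxB, Hoxb13 had 2 counts over the wildtype and 868 over the Nr6a1-/- libraries, which stood at 142, 145 and 148 CPM. No gene from Hoxb2 to Hoxb9 was called, the values lying between -0.25 (Hoxb9, FDR = 0.44) and 0.68 (Hoxb3, FDR = 0.223).

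At the anterior end, Hoxb1 (0.49, FDR = 0.00083) and the non-coding RNA Hotairm1 of HoxA (1.08, FDR = 4.08e-06) were higher. In HoxA, Hoxa7 was lower (-0.80, FDR = 0.00218), as was the antisense RNA Hoxaas3 (-0.64, FDR = 1.29e-05), while Hoxa9, Hoxa10 and Hoxa11 were at -0.094, 0.14 and -0.24 and not called. Of the 10 Hox cluster non-coding RNAs tested 2 were higher (20%) and 1 lower (10%). The overlap of these RNAs with Hox genes leaves their values uncertain.

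Most markers of NMPs were lower. Of 17 tested, 10 were lower (58.8%) and 3 higher (17.6%), against 4.63% and 3.28% over all genes tested, with a median of -0.96. All but Fgf17 and Wnt3a kept their call under every alternative. T stood as given above (log2 fold change -0.53, SE 0.107, FDR = 0.00066) and Sox2 at 23.7, 17.1 and 18.6 CPM in wildtype and 8.18, 3.82 and 7.72 CPM in Nr6a1-/- cells (log2 fold change -1.52, SE 0.261, FDR = 7.82e-05). Both factors that define these cells were thus lower in every Nr6a1-/- library than in any wildtype library. Nkx1-2, another marker of these cells, was at 0.27 (FDR = 0.633).

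The Cdx genes, homeobox factors that drive axial extension and trunk Hox genes, went in both directions. Cdx4 stood at 172, 166 and 189 CPM in wildtype and 58.2, 46.5 and 54.9 CPM in Nr6a1-/- cells (log2 fold change -1.71, SE 0.110, FDR = 2.05e-14), and Cdx2 at 46.1, 45.9 and 43.01 and 24.5, 22.9 and 21.9 CPM (log2 fold change -0.96, SE 0.160, FDR = 4.84e-05). Cdx1 stood at 132, 152 and 139 and 189, 204 and 213 CPM (log2 fold change 0.52, SE 0.116, FDR = 0.00248). The 3 family members were each separated between genotypes, with Cdx1 in the opposite direction.

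Among other NMP genes, the growth factor Fgf8 (-1.26, FDR = 4.97e-06), the homeobox gene Evx1 (-1.06, FDR = 0.000229), the zinc finger factor Sp8 (-1.63, FDR = 0.000105), the ephrin receptor Epha5 (-1.51, FDR = 0.00175) and the retinoic acid-degrading enzyme Cyp26a1 (-1.16, FDR = 9.12e-05) were lower, and Sp5 (0.53, FDR = 0.00015) and Grsf1 (0.77, FDR = 1.31e-05) higher. The lower call of Fgf17 (-0.51, FDR = 0.00683) was lost without Nr6a1-/- replicate 2 (-0.39, FDR = 0.0872). The higher call of Wnt3a (0.86, FDR = 0.0234) was lost without Nr6a1-/- replicate 1 (0.75, FDR = 0.123), Nr6a1-/- replicate 3 (0.66, FDR = 0.206), wildtype replicate 2 (0.91, FDR = 0.0564) or wildtype replicate 3 (0.66, FDR = 0.162), with FDR values over all alternatives of 0.00199 to 0.206.

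Genes of presomitic mesoderm and somites were higher where they were called. Of 13 tested, 5 were higher (38.5%) and 0 lower, with a median of 0.83, and all 5 calls were kept under every alternative. Tbx6, which commits progenitors to paraxial mesoderm, stood at 68.4, 84.9 and 74.6 CPM in wildtype and 141, 124 and 140.3 CPM in Nr6a1-/- cells (log2 fold change 0.83, SE 0.122, FDR = 6.57e-06). The protocadherin gene Pcdh19 stood at 32.6, 39.4 and 29.1 and 81.3, 93.6 and 95.2 CPM (log2 fold change 1.41, SE 0.189, FDR = 1.13e-06). For Pcdh8 the ratio of Nr6a1-/- to wildtype counts was 22.8 (95% counting interval 5.90 to 195, 39 against 2 counts). Msgn1 did not pass the filter, with 18 and 22 counts, and the somite factor Tcf15 was at 1.09 (FDR = 0.108). Of 14 neural progenitor factors tested, with a median of -0.24, 2 were higher (14.3%), among them Gbx2 (0.66, FDR = 0.000203), and 3 lower (21.4%), of which Irx3 and Irx5 lie on chromosome 8. The third, Zic1 (-1.02, FDR = 0.0463), was lost in each of the 6 fits that left out a library, with an FDR of up to 0.248.

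Of 14 retinoid handling genes tested 4 were higher (28.6%) and 1 lower (7.14%), with a median of 0.046, against 3.28% higher and 4.63% lower over all genes tested. Dhrs3, which reduces retinaldehyde, stood at 20.01, 25.99 and 25.3 CPM in wildtype and 82.7, 92.98 and 94.4 CPM in Nr6a1-/- cells (log2 fold change 1.91, SE 0.158, FDR = 1.53e-11). Aldh1a2, the enzyme that makes retinoic acid in mesoderm, stood at 6.05, 4.06 and 2.53 and 25.5, 19.7 and 19.7 CPM (log2 fold change 2.37, SE 0.296, FDR = 2.7e-07). Aldh1a2 was thus higher and the degrading enzyme Cyp26a1 lower in the same libraries, the latter at 34.9, 46.3 and 33.7 and 18.3, 18.5 and 15.01 CPM. Stra6 (0.42, FDR = 0.0282) was lost without Nr6a1-/- replicate 1 (0.40, FDR = 0.107), Nr6a1-/- replicate 2 (0.40, FDR = 0.0946), wildtype replicate 1 (0.45, FDR = 0.0553) or wildtype replicate 3 (0.33, FDR = 0.189), with an FDR of up to 0.189 over all alternatives. The receptors Rara, Rarg, Rxra and Rxrb were not called.

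In the pathway of Gdf11 itself, 2 of 24 tested genes were higher (8.33%) and 1 lower (4.17%), with a median of -0.030, so that the number of calls lay near that of all genes tested (3.28% and 4.63%). The higher genes, Lefty1 and Lefty2, encode secreted inhibitors of Nodal signalling that activin-type signals induce. Lefty1 (chromosome 1, 180935022 to 180938400, plus strand) stood at 66.99, 65.8 and 77.2 CPM in wildtype and 285, 260.5 and 274 CPM in Nr6a1-/- cells (log2 fold change 1.96, SE 0.107, FDR = 1.71e-16). Lefty2 stood at 48.9, 55.6 and 67.9 and 313, 331 and 329 CPM (log2 fold change 2.49, SE 0.150, FDR = 2.81e-15). Both were separated widely, by 3.90-fold and 5.63-fold. The receptors Acvr1b, Acvr2a, Acvr2b and Tgfbr1, the signal transducers Smad2, Smad3 and Smad4 and the feedback genes Smad7, Skil and Pmepa1 were not called, with values from -0.29 (Smad2) to 0.35 (Pmepa1). Gdf11 was at -0.56 (FDR = 0.0822) and Nodal at 0.69 (FDR = 0.119). The co-receptor gene Tdgf1 (-2.13, FDR = 0.0227) was lost without Nr6a1-/- replicate 1 (-2.19, FDR = 0.0665), Nr6a1-/- replicate 2 (-2.10, FDR = 0.062), Nr6a1-/- replicate 3 (-2.10, FDR = 0.0834) or wildtype replicate 1 (-1.79, FDR = 0.124), with a range over alternatives of 0.000442 to 0.124.

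Of 15 tested BMP genes 1 was higher and 1 lower (6.67% each), with a median of -0.0088, which is near the share over all genes. Id2, a target of BMP signals, stood at 35.4, 49.9 and 41.7 CPM in wildtype and 28.4, 18.5 and 20.6 CPM in Nr6a1-/- cells (log2 fold change -0.91, SE 0.165, FDR = 0.000187), whereas its relatives Id1 and Id3 were at 0.08 and -0.13 and not called. Bmp7 (0.78, FDR = 0.0045) lost its call with thinned counts.

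Wnt signalling genes differed in both directions. Of 18 tested ligands and receptors 4 were higher and 2 lower, and of 16 targets and feedback genes 5 higher and 3 lower, with medians of -0.045 and -0.11. These shares, 22.2% and 11.1% of the former and 31.2% and 18.8% of the latter, were above the 3.28% and 4.63% of all genes tested. Dkk1, a secreted Wnt inhibitor and Wnt target, stood at 97.7, 102 and 102 CPM in wildtype and 29.8, 24.8 and 27.9 CPM in Nr6a1-/- cells (log2 fold change -1.86, SE 0.130, FDR = 1.85e-13). Nkd2, an intracellular inhibitor, stood at 365, 372 and 354 and 528, 589 and 595 CPM (log2 fold change 0.65, SE 0.109, FDR = 5.24e-05), while its relative Nkd1, on chromosome 8, was lower (-0.62, FDR = 0.000267). The receptor gene Fzd5 fell by a count ratio of 11.8 (95% counting interval 4.34 to 44.7, 55 against 4 counts). The receptors Fzd7 (1.01, FDR = 0.000851) and Fzd10 (0.80, FDR = 0.0016), the ligand Wnt5a (0.70, FDR = 0.00164), the transcription factor Lef1 (0.45, FDR = 0.00105) and the secreted antagonist Frzb (1.48, FDR = 0.000229) were higher. Wnt5b (-0.50, FDR = 0.00389) lost its call with thinned counts and Rnf43 (1.16, FDR = 0.0147) under 4 of 14 alternatives, among them leaving out Nr6a1-/- replicate 2, wildtype replicate 1 or wildtype replicate 2, with a range of FDR of 0.00394 to 0.118.

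FGF ligands split in the same way. Of 20 tested genes 5 were higher (25%) and 2 lower (10%), with a median of 0.29. Fgf8 stood at 54.4, 45.5 and 40.1 CPM in wildtype and 19.7, 21.02 and 18.02 CPM in Nr6a1-/- cells, while Fgf4 (2.33, 1.62 and 0.843 and 8.18, 5.09 and 6.86 CPM, log2 fold change 2.08, FDR = 0.00066) and Fgf15 (1.86, 5.28 and 4.22 and 13.9, 10.8 and 9.01 CPM, log2 fold change 1.53, FDR = 0.00317) were higher. Dusp6, a phosphatase induced by FGF signals, stood at 47.5, 49.9 and 81.8 and 205, 143 and 87.1 CPM (log2 fold change 1.27, SE 0.259, FDR = 0.000762), and there the highest wildtype library lay close to the lowest Nr6a1-/- library. Spry4 (0.98, FDR = 0.0032) was lost without Nr6a1-/- replicate 1 (0.72, FDR = 0.0794) and Spred2 (0.74, FDR = 0.00296) without Nr6a1-/- replicate 3 (0.50, FDR = 0.101). Of 16 Notch and clock genes 2 were higher (12.5%) and 3 lower (18.8%), with a median of 0.19. The higher genes included the ligand Dll1 (0.64, FDR = 0.00236) and the lower ones Nkd1 of chromosome 8. Only 1 of the higher and 1 of the lower calls were kept under every alternative.

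**Figure D4:**
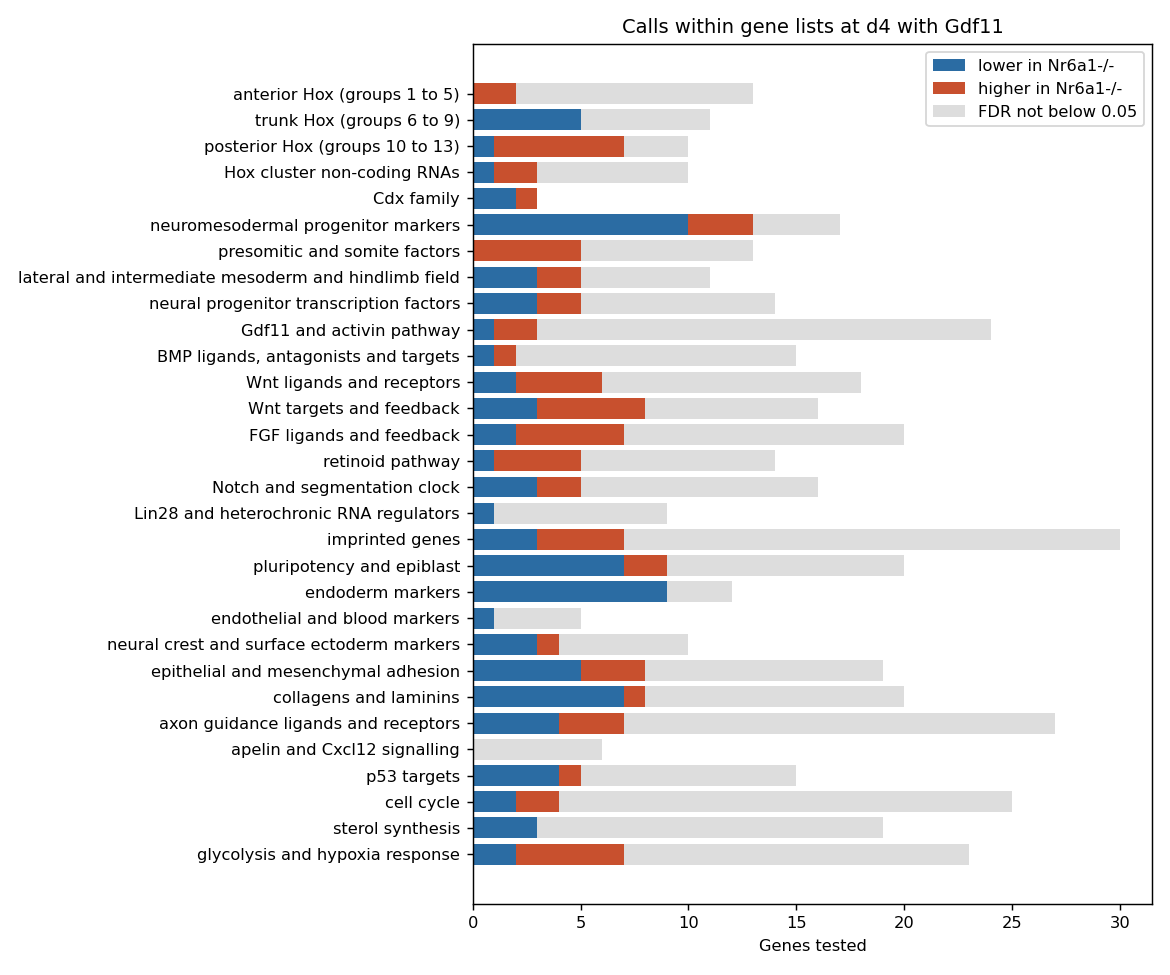
Number of tested genes of each list that were lower (blue), higher (red) or not called (grey) in Nr6a1-/- cells at d4 with Gdf11. Lists with calls in 1 direction include the presomitic and somite factors, 5 higher of 13, and the endoderm markers, 9 lower of 12.

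Among imprinted genes, whose expression comes from the allele of 1 parent, 4 of 30 were higher (13.3%) and 3 lower (10%). H19 is described above, and its neighbour Igf2, a fetal growth factor, stood at 13.96, 7.71 and 8.85 CPM in wildtype and 1.92, 1.27 and 1.72 CPM in Nr6a1-/- cells (log2 fold change -2.56, SE 0.494, FDR = 0.000588). Dlk1, a Notch-like ligand of another imprinted cluster, stood at 14.4, 18.7 and 12.2 and 98.1, 81.5 and 98.7 CPM (log2 fold change 2.62, SE 0.168, FDR = 1.86e-14), while Meg3 of that cluster was at -1.62 (FDR = 0.123). H19 and Igf2 thus fell together, and Dlk1 rose. Peg3 (0.52, FDR = 0.000216) and Slc38a4 (0.72, FDR = 3.31e-05) were higher and Nnat (-0.69, FDR = 0.00704) lower. Zdbf2 (0.46, FDR = 0.0485) was lost under 12 of 14 alternatives, with an FDR of up to 0.319.

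Lin28a, an RNA-binding protein of early progenitors, stood at 97.7, 86.9 and 97.8 CPM in wildtype and 66.4, 65.6 and 63.5 CPM in Nr6a1-/- cells (log2 fold change -0.53, SE 0.108, FDR = 0.000781), the only call among 9 heterochronic regulators. Its paralogue Lin28b was at 0.01 (FDR = 0.989). Of 20 pluripotency and epiblast genes 7 were lower (35%) and 2 higher (10%). Kept under every alternative were 3 of these calls, those of Dppa5a (-0.83, FDR = 9.05e-05), Cdh1 on chromosome 8 (-1.39, FDR = 0.00487) and Lefty1. Against the median of its chromosome Cdh1 was at -1.08 (FDR = 0.0446). Nanog was at -0.60 (FDR = 0.281).

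Called matrix genes were mostly lower, while called adhesion genes went in both directions. The keratins Krt18 (104, 94.2 and 98.7 CPM in wildtype and 33.2, 35.7 and 31.3 CPM in Nr6a1-/- cells, log2 fold change -1.57, SE 0.121, FDR = 2.44e-12) and Krt8 (-0.91, FDR = 0.000188) fell together, as did Cldn7 (-2.61, FDR = 6.57e-06). Of 19 adhesion genes 5 were lower (26.3%), 2 of them on chromosome 8, and 3 higher (15.8%). Among these calls 3 lower and 1 higher were kept under every alternative. The mesenchymal filament gene Vim was higher (106, 104 and 99.5 and 198, 194 and 215 CPM, log2 fold change 0.97, SE 0.1001, FDR = 3.63e-09). Of 20 collagens, laminins and matrix genes 7 were lower (35%) and 1 higher (5%), 2 of the lower ones on chromosome 8. Off it, Sparc, a collagen-binding matrix protein (163, 150.2 and 142 and 62.05, 78.3 and 56.6 CPM, log2 fold change -1.22, SE 0.122, FDR = 1.77e-09), Col2a1 (-1.27, FDR = 3.26e-05) and Lamc1 (-0.92, FDR = 0.000526) fell, and Col13a1 rose (1.38, FDR = 6.86e-06). The median of this list was near 0, at 0.0089, and changed sign with the scaling.

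Genes of lateral mesoderm and hindlimb field gave 3 lower (27.3%) and 2 higher (18.2%) calls of 11. Pitx1, which specifies the hindlimb, stood at 33.96, 23.1 and 28.7 CPM in wildtype and 3.37, 2.55 and 5.15 CPM in Nr6a1-/- cells (log2 fold change -2.88, SE 0.311, FDR = 1.87e-08). Tbx3, another limb and body wall factor, went the other way, at 79.1, 74.3 and 104 and 161, 168 and 133 CPM (log2 fold change 0.84, SE 0.149, FDR = 0.000111). Of 10 neural crest and surface ectoderm markers 3 were lower (30%), the keratins and Sox9 (-1.23, FDR = 0.000239), and 1 higher (10%).

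Shares called in the remaining lists are to be read beside the 3.28% higher and 4.63% lower of all genes tested. Of 27 axon guidance genes 3 were higher (11.1%), among them Sema5a (1.79, FDR = 0.000273) and Plxna2 (0.86, FDR = 0.0027), and 4 lower (14.8%), among them Nrp1 and Epha5. Of 23 glycolysis and hypoxia genes 5 were higher (21.7%), Egln3 most (2.41, FDR = 8.54e-06), and 2 lower (8.70%), Ndrg1 (-2.69, FDR = 3.65e-06) and the glucose transporter gene Slc2a3 (-0.95, FDR = 7.11e-06). Only 2 of the 5 higher calls were kept under every alternative. Of 15 p53 targets 4 were lower (26.7%), among them Ccng1 (-0.59, FDR = 1.18e-05) and Perp (-0.77, FDR = 0.000216), and 1 higher (6.67%), Btg2 (0.56, FDR = 7.31e-06). Of these 4 lower calls 2 were kept under every alternative. Of 25 cell cycle genes 2 were higher and 2 lower (8% each), near the share over all genes and none beyond a log2 change of 1.22 in size. Of 19 sterol synthesis genes 3 were lower (15.8%), 2 of them on chromosome 8. None of 6 apelin and Cxcl12 genes was called.

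To ask where the genotype difference depended on Gdf11, it was set beside that at d4 without Gdf11, which has its own wildtype libraries. The labels give each d4 wildtype library, and Nr6a1-/- replicate 1, the same index as its d4G counterpart. Libraries with the same index cannot have shared a pool, so Gdf11 and library pool cannot be told apart in the differences between stages. Of all 12149 genes tested, those of chromosome 8 included, 2294 were called at d4 and 960 at d4G. Both stages called 585 genes, which is 60.9% of the 960 and 25.5% of the 2294. The d4 libraries held 2101598 to 3688197 counts, against 1570714 to 2365945 at d4G. These numbers of calls were thus not taken at equal depth, and thinning to the smallest library took the 960 to 656. Their direction was the same for 561 and opposite for 24. The difference between both effects was itself past the threshold for 323 genes (2.66%), of which 142 were shifted upwards and 181 downwards with Gdf11, and 109 of these were called at d4G. This count depended on the libraries, being 823 without d4 Nr6a1-/- replicate 1 and 205 without d4 Nr6a1-/- replicate 3.

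Among the genes described above, the inhibitors of Nodal and Hoxc13 shifted upwards with Gdf11 by this test. Lefty1 (at d4, 0.15, FDR = 0.821) and Lefty2 (at d4, -0.73, FDR = 0.428) were not called without Gdf11, the shifts being 1.82, SE 0.328, FDR = 0.00056 and 3.22, SE 0.604, FDR = 0.000958, both lost with thinned counts. Hoxc13 was likewise not called at d4 (-0.75, FDR = 0.25), with a shift of 3.81, SE 0.494, FDR = 2.85e-06. At d4 these genes were low in both genotypes. The wildtype and Nr6a1-/- means were 3.82 and 4.26 CPM for Lefty1, 2.68 and 1.52 CPM for Lefty2 and 3.80 and 2.24 CPM for Hoxc13. A genotype difference could be missed at such levels.

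Among NMP markers, T was higher in Nr6a1-/- cells at d4 (0.69, FDR = 6.15e-06) and lower at d4G, a shift of -1.22, SE 0.151, FDR = 1.54e-06. Cdx2 (-0.09, FDR = 0.637) and Cyp26a1 (0.18, FDR = 0.555) were not called at d4, with shifts of -0.87 and -1.34 that were lost with thinned counts. Cdx4, in contrast, was lower at both (-1.33, FDR = 6.85e-12 at d4), with a difference of -0.38, SE 0.157, FDR = 0.225. Lin28a (0.35, FDR = 0.00399 at d4), Sox9 (0.83, FDR = 0.0235) and Slc2a3 (0.52, FDR = 0.00222) also turned from higher to lower, and Tbx3 (-1.49, FDR = 8.34e-06) and Btg2 (-1.01, FDR = 1.83e-09) from lower to higher.

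Other large differences were called at both stages. H19 was at -6.02, FDR = 1.44e-21 at d4, with a difference between stages of -0.49, SE 0.499, FDR = 0.744, and Sox17 at -3.34, FDR = 4.22e-09, with -0.45, SE 0.658, FDR = 0.822. Spock2 (3.10, FDR = 4.86e-17) and Mt1 (-2.09, FDR = 5.73e-18) were also called at d4, and their differences of -0.20 and 0.26 did not pass the threshold, which does not show that they are equal. Aldh1a2 was higher at both, and less so with Gdf11 (4.96, FDR = 1.22e-22 at d4, a shift of -2.59, SE 0.422, FDR = 0.000136).

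**Figure D5:**
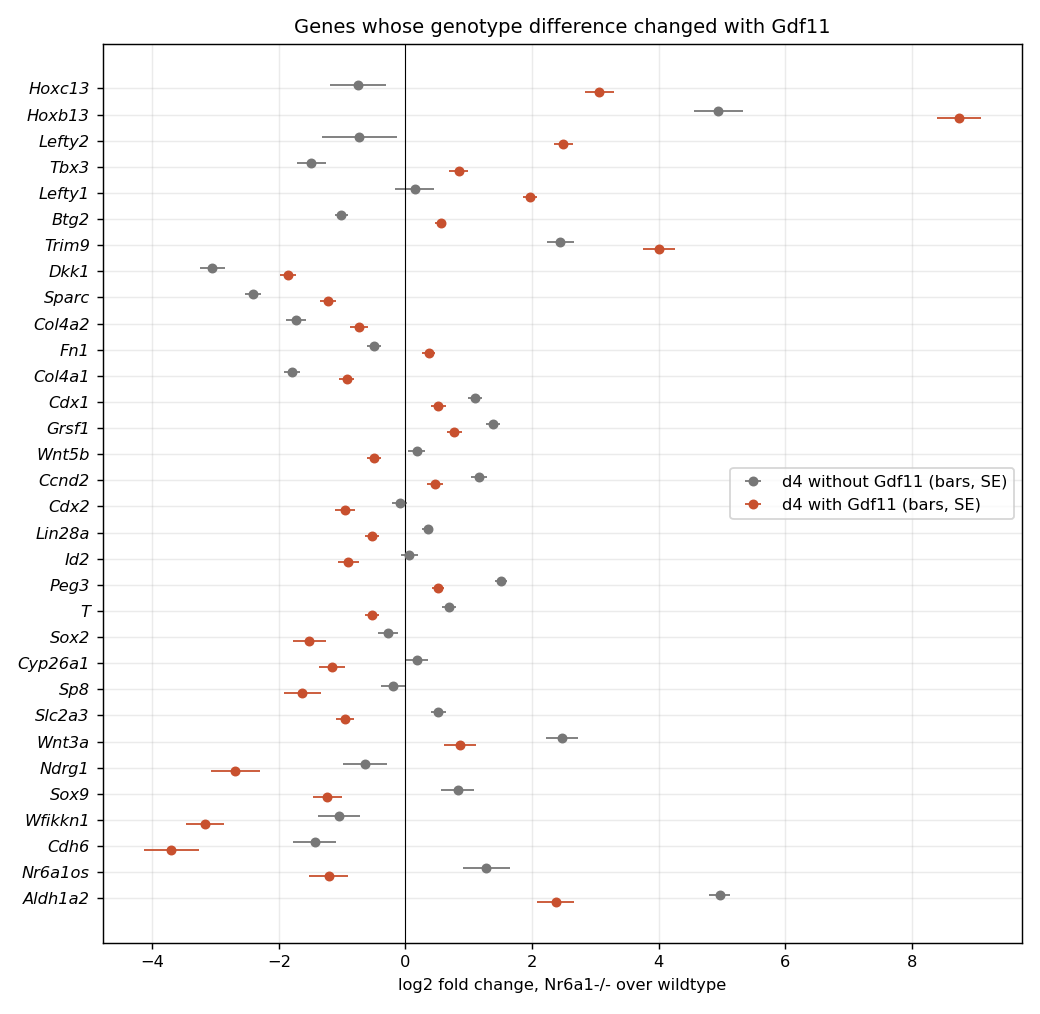
Log2 fold change (Nr6a1-/- over wildtype) with its standard error at d4 without (grey) and with Gdf11 (red), for 32 genes of the lists and the naming rule that were called at d4G and whose difference between stages passed the threshold. The genes are ordered by that difference, from Hoxc13 and Hoxb13 at the top, shifted upwards with Gdf11, to Aldh1a2 and Nr6a1os at the bottom.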

How the data were processed

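RNA was measured in 30 libraries of Bruce4-derived cells, and the 6 at d4G carry the comparison described here. The authors primed total RNA at the poly(A) tail with an indexed primer, and the processing notes of the submitters name mm10, STAR and edgeR. Strand use, the counting tool and collapsing of molecular identifiers are not given in the sources used here. The deposited count table holds raw whole-number counts for 54134 gene symbols, of which 26 were turned into dates by a spreadsheet. The authors' tables of fold changes and p-values were not used. Groups and replicate letters (A, B and C as 1, 2 and 3) come from the labels. Labels do not say that replicates are separate cultures, so p-values measure the spread between these libraries only, and no replicate pair held the same counts (chi-square per gene of at least 1.92).

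The filter on low values asked for over 10 counts together with over 2 CPM, in 2 or more libraries of any 1 group, and passed 12149 genes that held 99.2% or more of the counts in every library. One edgeR 4.0.16 (R 4.3.3) quasi-likelihood model of all 10 groups, with TMM factors and 20 residual degrees of freedom, gave the genotype effect at d4G, at d4 and their difference, 2-sided, with Benjamini-Hochberg adjustment over all genes tested. SE is the log2 fold change over the square root of F. CPM are TMM-scaled and counts were not divided by gene length, since the indexed fragments lie near 3′ ends. Positions are those of GENCODE M21 (GRCm38), matched by symbol for 99.0% of tested genes, counted from 1. In simulated counts for this comparison, run on 12149 genes, changes were given only to genes with a mean above 10 CPM. There, 83.0% of genes changed by 1 on the log2 scale and 99.0% of those changed by 2 were recovered, and 0.0753% of unchanged genes were called. Recovery of genes below that level was not simulated.

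Named genes are Nr6a1, Nr6a1os, the Hox genes, the 15 largest rises and falls off chromosome 8, the 8 largest falls and 4 largest rises on it (called, at least 10 CPM in 1 group, groups not overlapping), the 5 smallest FDR in each direction, and called list members. Some genes that the rule selects are not reported here. The comparison, the lists and the rules were chosen with earlier results of these data known. Counting ratios use pooled counts with exact 95% intervals. Alternatives were RLE or no factors, TMM without chromosome 8, no filter, DESeq2 1.42.0, the compared libraries alone, a replicate block, thinning, and each library left out.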

Additional observations from a re-analysis of the deposited data

Results flagged for a closer look

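The genotype effect differed between d4 with and without Gdf11, by the test of the difference itself in edgeR, for 32 called genes of the lists and naming rule. On the log2 scale the effect with Gdf11 minus that without was above 0 for 12 genes, Hoxc13 (3.81), Hoxb13 (3.80), Lefty2 (3.22), Tbx3 (2.33), Lefty1 (1.82), Btg2 (1.57), Trim9 (1.55), Dkk1 (1.19), Sparc (1.18), Col4a2 (0.99), Fn1 (0.87), Col4a1 (0.87). It was below 0 for 20 genes, Aldh1a2 (-2.59), Nr6a1os (-2.49), Cdh6 (-2.26), Wfikkn1 (-2.12), Sox9 (-2.06), Ndrg1 (-2.04), Wnt3a (-1.61), Slc2a3 (-1.47), Sp8 (-1.43), Cyp26a1 (-1.34), Sox2 (-1.24), T (-1.22), Peg3 (-0.99), Id2 (-0.97), Lin28a (-0.88), Cdx2 (-0.87), Ccnd2 (-0.69), Wnt5b (-0.68), Grsf1 (-0.61), Cdx1 (-0.58). For 8 of the 32 genes, Nr6a1os, Sox9, Slc2a3, T, Lin28a, Fn1, Btg2, Tbx3, both effects were called and opposite. The d4G calls of Nr6a1os and Fn1 were less firm. That of Nr6a1os was lost with DESeq2 and without Nr6a1-/- replicate 3 (FDR = 0.0548), among others. That of Fn1 was lost without Nr6a1-/- replicate 3 (FDR = 0.104), wildtype replicate 1 (FDR = 0.0974) or scaling factors (FDR = 0.0621). The difference kept its call under every alternative for 14 genes, Aldh1a2, Sox9, Slc2a3, T, Peg3, Id2, Lin28a, Col4a1, Fn1, Col4a2, Sparc, Btg2, Tbx3, Hoxc13. The others lost it under 1 or more, most often for Cdh6, Ndrg1 and Wnt5b. The presence of Gdf11 and the library pool cannot be told apart in this difference, and no explanation was tested.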

How the results depend on the processing

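No direction reversed for any of the 167 called genes of the lists and naming rule, and 44 of them lost their call under 1 or more alternatives. The 960 calls became 794 with DESeq2, 948 with RLE factors, 978 without factors and 656 with counts thinned to the smallest library, and 702 to 775 with 1 library left out. Higher genes numbered 263 to 312 of 398 and lower genes 412 to 481 of 562, off chromosome 8 259 to 308 of 391 and 301 to 349 of 404, and lower genes on chromosome 8 111 to 132 of 158. Against the median of its own genes, chromosome 8 had 35 lower calls. The difference in chromosome 8 share lay between -1.08 and -1.03 percentage points with 1 library left out. The 323 genes whose genotype effect differed between d4G and d4 became 212 with the compared libraries alone, 161 with thinned counts, and 205 to 823 with 1 library left out, the extremes being d4 Nr6a1-/- replicates 3 and 1, and the cause was not tested. Among called genes with a promoter window, the extended site was in 0.282%, the direct repeat in 0% and the AGGTCA core in 15.7%, which differ by the length of the sequence searched. Of 868 list counts recomputed, 84 moved by more than 1.5 times. The medians of imprinted genes, collagens and laminins, and heterochronic regulators, all near 0, changed sign with the scaling.

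The replicate numbers did not pair the samples, since libraries of the same number at d4G had correlations of their deviations of -0.34, -0.04 and -0.35, and no d4G library correlated best with its own number. Across numbers, wildtype replicate 3 and Nr6a1-/- replicate 1 were at 0.39 and wildtype replicate 1 and Nr6a1-/- replicate 3 at 0.27, so that deviations were shared between some libraries. With the replicate block 860 genes were called, with 353 higher and 355 lower off chromosome 8 and 147 lower on it. For the difference between stages the block gave 288 genes.

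Depth limits genes near 2 CPM, since a gene without counts may stand at 1.27 to 1.91 CPM. The Nr6a1-/- cells are 1 clone, so that clone and genotype cannot be told apart.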
